A study of Macaca mulatta with 161 samples.

Results

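Integrins and cadherins were followed in 161 single inner cells of cultured rhesus monkey blastocysts. Members were all genes of the expression table whose symbol starts with ITGA, ITGB or CDH in the form used for integrin alpha subunits, integrin beta subunits and classical or related cadherins. This gave 46 members of 16049 genes: 16 alpha subunits, 8 beta subunits and 22 cadherins. The rule used gene names only, and no measured value. The cells are 44 from early blastocysts with a small cavity (about embryonic day 5), 39 from middle blastocysts (about day 5.5), 52 from late, fully expanded blastocysts (about day 6) and 26 from hatching blastocysts (about day 7). All groups share their origin: oocytes of hormone-stimulated Macaca mulatta females were fertilised, embryos were grown in the same medium, the membrane dye PKH26 marked outer cells, and cells without dye were taken as inner cell mass. No genotype or treatment differs between groups, and the study follows the inner cells through these stages. The embryos had no uterine tissue, their zona was removed with Pronase and their cells were separated with trypsin in a solution free of calcium and magnesium. No label ties a cell to an embryo, so each stage counts as 1 sample. Since cells do not replicate a stage, stages could not be tested against each other, and every value describes these cells with no replicate check. In such data fewer expressing cells and a lower level per cell are given side by side, as detection and level.

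Integrins are receptors of 1 alpha and 1 beta chain that hold cells to extracellular matrix and signal through the actin skeleton. The alpha chain largely sets the ligand: laminin for some, collagen for others, and the RGD motif of fibronectin or vitronectin for a further group. Classical cadherins hold neighbouring cells together, need calcium, bind mostly their own kind and are anchored to actin by catenins. In the blastocyst, E-cadherin is known for its role in compaction and in the cohesion of the inner cell mass. The inner cells then divide into epiblast, which keeps the transcription factor NANOG and forms the embryo proper, and primitive endoderm (also called hypoblast), which turns on the transcription factor SOX17 and lays down a basement membrane.

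Levels are FPKM, which are scaled to transcript length and can therefore be compared between genes. A member was counted as detected in a cell at FPKM of at least 1, and intervals on shares of cells are exact Clopper-Pearson 95% intervals that cover the counting error of cells only. The median cell held 11.9 M (mega) recovered reads (3.15 to 20.1 M), with stage medians of 11.2 to 12.8 M. FPKM 1 corresponded to a median of 33.5 reads for ITGB7 and 81.3 reads for ITGAV, the extremes of the 14 members described below. Amplified reads without molecular identifiers are not independent molecules. The inner cell label was checked against markers: POU5F1 was detected in every cell and NANOG in 90.4% to 100% of the cells of a stage. Of the trophectoderm (outer cell) markers, HSD3B1 was at 0 throughout and KRT18 was detected in every cell, while CDX2 was detected in 97.7%, 94.9%, 57.7% and 50.0% of early, middle, late and hatching cells. The summed FPKM of the 14 trophectoderm markers had stage medians between 2067 and 2398. Single cells ranged widely: 650 to 6894 in early, 475 to 8622 in middle, 372 to 23661 in late and 722 to 5450 in hatching cells. In clusters formed within a stage, described below, a middle cluster of 26 cells had 5 of these markers raised. An early cluster of 19 cells had 3 raised. What these differences stand for was not tested. A single early cell formed a cluster of its own, with 6.35 M reads, CDH1 at 4.69 FPKM and NANOG at 6.45 FPKM. No comparison of hatching with early cells given below left its side of the counting threshold without that cell.

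Of the 46 members, 14 reached FPKM 1 in at least 25% of the cells of a stage and are described one by one: 7 alpha subunits, 3 beta subunits and 4 cadherins. A median of 9 members was detected per early cell, 9 per middle, 8 per late and 7.5 per hatching cell. The 32 others were sparse. Of these, 6 were listed at 0 in every cell (ITGAD, ITGB6, ITGB8, CDH9, CDH18 and CDH22) and ITGAX, ITGB3, CDH4 and CDH15 never reached FPKM 1. The remaining 22 were detected in 1 to 15 cells, at most in 15.4% of the cells of a stage.

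**Figure D1:**
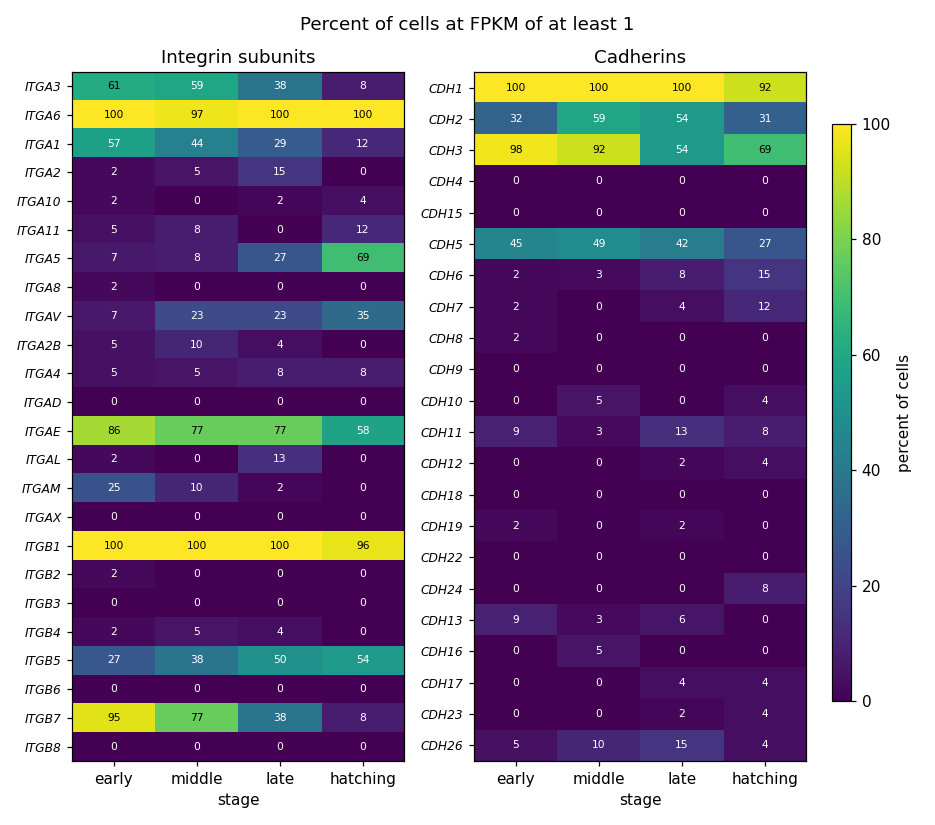
Percent of cells at FPKM of at least 1 for each of the 46 members (rows, integrin subunits left and cadherins right) in each stage (columns); colour and printed number give the same percent. ITGA6, ITGB1 and CDH1 are detected in nearly every cell, and most rows are at or near 0.

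Over all cells the cadherins of highest mean FPKM were 2 neighbours, CDH1 and CDH3. In late cells CDH2 (mean 23.6 FPKM) stood above CDH3 (mean 11.7 FPKM), and in 30 of 52 cells. CDH1 and CDH3 lie next to each other in the RefSeq annotation of T2T-MMU8v2.0, with no protein-coding gene between them. CDH1 encodes E-cadherin, the main cadherin of epithelia and of the pluripotent inner cells. Its FPKM ran from 4.69 through a median of 240.1 to 371 in early cells and from 236 through 316 to 635 in middle cells. In late cells the lowest, median and highest values were 11.1, 127 and 381 FPKM, and in hatching cells 0.589, 66.7 and 194 FPKM. The lowest middle cell thus lay above the highest hatching cell. The mean of log2(FPKM + 1) was 7.81 (SD 0.89, n = 44 cells) in early, 8.38 (SD 0.34, n = 39) in middle, 6.83 (SD 1.07, n = 52) in late and 5.45 (SD 1.93, n = 26) in hatching cells. The spread between cells was narrowest in the middle stage and widest in the hatching stage. Of the 14 trophectoderm markers, 8 were detected less often in hatching than in early cells, 3 more often and 3 equally often. CLDN4 had mean log2 levels of 10.00, 9.88, 4.56 and 1.72 in order of stage, while KRT19 had 1.84, 2.50, 6.18 and 8.61. Their part in the result was not tested.

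CDH3 encodes P-cadherin, a classical cadherin first described in placenta and also found in basal epithelia. Early cells ranged from 0.995 through a median of 44.4 to 178 FPKM, and middle cells from 0.0207 through 21.03 to 114 FPKM. Late cells had a median of 3.48 FPKM (0.0177 to 87.5) and hatching cells a median of 29.8 FPKM (0.0448 to 125). Over all cells of a stage, CDH3 was therefore lowest in the late one, and the ranges of the stages overlapped. The share of PE-like cells, a class described below, differed between the late and hatching stages. It was detected in 43 of 44 early, 36 of 39 middle, 28 of 52 late and 18 of 26 hatching cells. Mean log2 levels were 5.36, 4.19, 2.31 and 4.02, with SDs of 1.20, 1.69, 2.102 and 2.64.

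CDH2 encodes N-cadherin, typical of neural and mesenchymal cells and of cells that have left an epithelium. It was detected in 14 of 44 early cells (31.8%, interval 18.6% to 47.6%), 23 of 39 middle cells (58.97%, 42.1% to 74.4%), 28 of 52 late cells (53.8%, 39.5% to 67.8%) and 8 of 26 hatching cells (30.8%, 14.3% to 51.8%). The share was thus highest in the middle and late stages, while the highest cell of a stage had 8.59, 26.4, 83.9 and 277 FPKM in order of stage. Median values were 0.107, 2.37, 8.10 and 0.157 FPKM. In the last pair of stages the cells fell into a high and a low group, which the plot of levels by stage shows.

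CDH5 encodes VE-cadherin, known as the cadherin of endothelial junctions. It was detected in 20 of 44 early, 19 of 39 middle, 22 of 52 late and 7 of 26 hatching cells, with highest values of 27.9, 109, 47.6 and 45.7 FPKM. Median values lay below FPKM 1 in every stage (0.112, 0.297, 0.0732 and 0.0543), so detection was split among cells throughout. Of 9 endothelial markers with values, EMCN was at 0 in every cell, and CD34, TIE1 and CLDN5 were detected in at most 3.8% of the cells of a stage. VWF was detected in 54.5%, 74.4%, 67.3% and 80.8% and EGFL7 in 36.4%, 25.6%, 44.2% and 80.8% of the cells. TEK was detected in 11.4%, 7.69%, 34.6% and 0%. From early to hatching cells, 4 of the 9 were detected more often, 2 less often and 3 equally often. The summed FPKM of that list ranged from 0 to 100.04 in early, 0.0621 to 65.8 in middle, 0.116 to 130.5 in late and 0.433 to 256 in hatching cells.

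**Figure D2:**
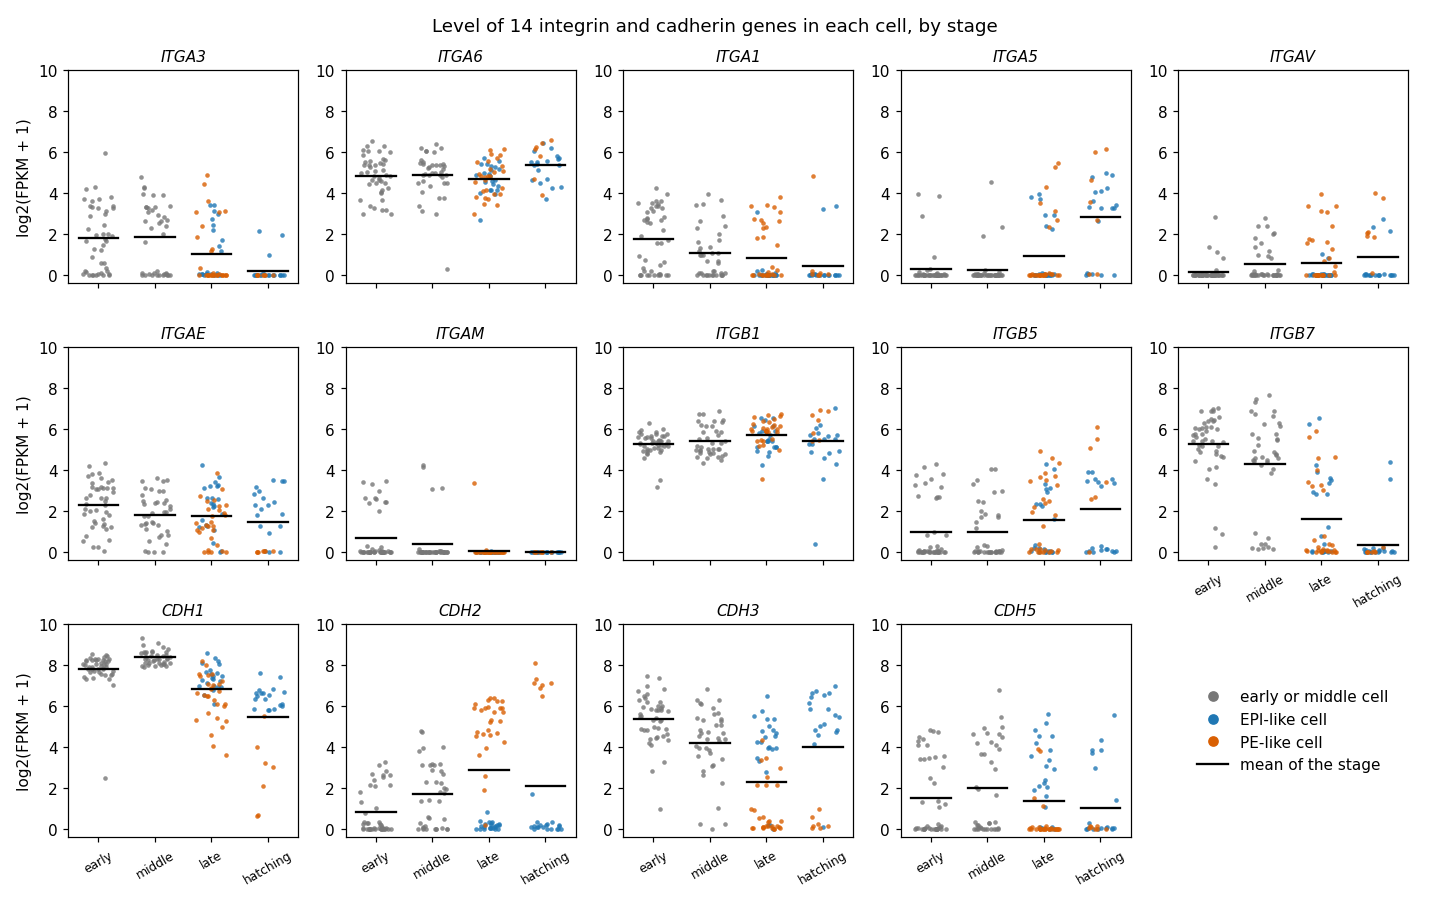
Level as log2(FPKM + 1) (vertical axis) of the 14 most widely detected members in each of the 161 cells, by stage (horizontal axis); points are cells, black bars are stage means, and colour gives the class of late and hatching cells (blue EPI-like, orange PE-like). ITGB7 means go from 5.27 in early to 0.35 in hatching cells, while ITGB1 means stay between 5.28 and 5.73.

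Among beta subunits, ITGB1 was present in nearly every cell, and ITGB7 was detected less often in each later stage, with overlapping ranges. ITGB1 is the partner of most alpha subunits that bind laminin, collagen or fibronectin. Its median was 38.8 FPKM in early (7.98 to 77.8), 34.6 in middle (19.5 to 118), 57.5 in late (10.6 to 105) and 45.01 in hatching cells (0.308 to 129). These ranges overlapped widely, and 160 of the 161 cells had it at FPKM of at least 1.

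ITGB7 pairs with ITGAE or ITGA4 and is known from lymphocytes of the gut lining. It was detected in 42 of 44 early cells (95.5%, interval 84.5% to 99.4%), 30 of 39 middle cells (76.9%, 60.7% to 88.9%), 20 of 52 late cells (38.5%, 25.3% to 52.98%) and 2 of 26 hatching cells (7.69%, 0.946% to 25.1%). Lowest, median and highest values were 0.172, 46.4 and 130.3 FPKM in early, 0.111, 25.4 and 197 FPKM in middle, 0, 0.236 and 92.0 FPKM in late, and 0, 0.0133 and 19.7 FPKM in hatching cells. Middle and late cells held both high and low cells, and 23 of 26 hatching cells lay below the lowest early cell. Mean log2 levels were 5.27 (SD 1.52), 4.31 (SD 2.38), 1.61 (SD 2.04) and 0.35 (SD 1.07). ITGB7 was lower in hatching than in late cells in both cell classes described below: late EPI-like and PE-like cells had means of 1.86 and 1.41, and hatching EPI-like and PE-like cells 0.47 and 0.04.

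Because ITGB7 is best known from leukocytes, leukocyte markers are given beside it. Of the 10 with values, AIF1, CX3CR1 and LAPTM5 never reached FPKM 1, while TYROBP was detected in 47.7%, 92.3%, 32.7% and 15.4% of early to hatching cells. The summed FPKM of the list ranged from 0 to 109 in early, 10.5 to 185 in middle, 0 to 98.2 in late and 0 to 164 in hatching cells, with medians of 29.8, 71.9, 21.7 and 0.218. CD68 was detected in 31.8%, 23.1%, 23.1% and 0% and LYZ in 29.5%, 33.3%, 23.1% and 0% of early to hatching cells. From early to hatching cells, 5 of the 10 were detected less often, 2 more often and 3 in none. Their part in the ITGB7 values was not tested. ITGB2, the beta chain of the leukocyte integrins proper, was detected in 1 of 161 cells.

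ITGB5 forms the vitronectin receptor αVβ5 with ITGAV. It was detected in 12 of 44 early, 15 of 39 middle, 26 of 52 late and 14 of 26 hatching cells, with medians of 0.0362, 0.0540, 0.856 and 5.17 FPKM. The highest cells had 18.3, 15.7, 29.9 and 66.4 FPKM. Cells at or near 0 occurred in every stage, so the ranges overlapped fully.

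The make-up of the beta chains differed by stage. ITGB7 had the highest FPKM of the 8 beta members in 26 of 44 early, 15 of 39 middle, 3 of 52 late and 0 of 26 hatching cells. Its median part of the summed beta FPKM was 52.2% in early, 36.01% in middle, 0.317% in late and 0.0170% in hatching cells, and that of ITGB1 was 45.3%, 63.9%, 86.5% and 91.9%. The summed beta FPKM itself had medians of 95.9, 89.0, 64.2 and 50.4.

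Of the alpha subunits, ITGA6 led in each stage. ITGA6 is a laminin receptor chain and a common marker of stem and epithelial cells. Its lowest, median and highest values were 6.77, 29.5 and 90.5 FPKM in early, 0.243, 30.9 and 83.8 in middle, 5.53, 27.02 and 68.8 in late and 12.3, 44.6 and 94.8 in hatching cells. It had the highest FPKM of the alpha chains in 41 of 44, 35 of 39, 46 of 52 and 23 of 26 cells and made up a median of 62.3% to 69.1% of the summed alpha FPKM in every stage. ITGA3, the other laminin-binding alpha chain with wide detection, was present in 27 of 44 early, 23 of 39 middle, 20 of 52 late and 2 of 26 hatching cells. Its medians were 2.30, 4.29, 0.0360 and 0 FPKM, and the highest hatching cell had 3.42 FPKM.

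ITGA5, the alpha chain of the fibronectin receptor α5β1, had the opposite order of stages. It was detected in 3 of 44 early cells (6.82%, interval 1.43% to 18.7%), 3 of 39 middle cells (7.69%, 1.62% to 20.9%), 14 of 52 late cells (26.9%, 15.6% to 41.02%) and 18 of 26 hatching cells (69.2%, 48.2% to 85.7%). The median was 0 FPKM in early and middle cells, 0.0186 in late and 8.93 in hatching cells, with highest cells of 14.5, 22.1, 42.7 and 69.5 FPKM. Thus 9 of 26 hatching cells lay above the highest early cell, and low cells remained in each stage.

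ITGAV, the alpha chain of vitronectin receptors, was detected in 3 of 44, 9 of 39, 12 of 52 and 9 of 26 cells, with highest values of 6.11, 5.92, 14.6 and 14.9 FPKM. ITGA1, a collagen receptor chain, was detected in 25 of 44, 17 of 39, 15 of 52 and 3 of 26 cells. Its highest value was 27.3 FPKM, in a hatching PE-like cell. Both were minor chains, at stage medians below 3 FPKM.

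ITGAE, which pairs with ITGB7 to bind E-cadherin, was detected in 38 of 44 early, 30 of 39 middle, 40 of 52 late and 15 of 26 hatching cells. Its medians were 4.38, 2.79, 2.44 and 1.98 FPKM, and its highest values 19.3, 11.1, 18.1 and 10.6 FPKM. ITGAM, an alpha chain of leukocyte integrins, was detected in 11 of 44, 4 of 39, 1 of 52 and 0 of 26 cells, at most at 17.7 FPKM. A count of 0 of 26 allows a share of up to 13.2% by the exact interval. ITGAM was found together with its partner ITGB2 in 1 early cell.

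Receptors need both chains in the same cell, so detection of known pairs was counted per cell. ITGA6 with ITGB1 was found in 44 of 44 early, 38 of 39 middle, 52 of 52 late and 25 of 26 hatching cells. ITGAE with ITGB7 was found in 36 of 44, 23 of 39, 16 of 52 and 1 of 26 cells, and ITGA5 with ITGB1 in 3, 3, 14 and 18 cells. In early cells the laminin and E-cadherin binding pairs were thus common and the fibronectin receptor pair rare. In hatching cells ITGA5 with ITGB1 was found in 18 of 26 and ITGAE with ITGB7 in 1. ITGAV with ITGB5 was found in 2, 2, 8 and 7 cells, and ITGA6 with ITGB4, the hemidesmosome receptor, in 1, 1, 2 and 0 cells.

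The first and last stage were compared by the difference of mean log2(FPKM + 1), where a difference of at least 1 was counted and genes needed a mean of at least 1 FPKM over all cells. Of the 46 members, 12 passed that filter. ITGAV (0.993 FPKM) and ITGAM (0.789 FPKM) did not, and the 12 are the widely detected members, so their counts are a description. In hatching minus early, 3 were higher (ITGA5 by 2.53, CDH2 by 1.27, ITGB5 by 1.11) beside 11.3% of the 9781 genes that passed. A further 5 were lower (ITGB7 at -4.91, CDH1 at -2.36, ITGA3 at -1.61, CDH3 at -1.34, ITGA1 at -1.28) beside 16.2% of the genes. The median of the 12 was -0.65 and that of the 9781 genes -0.12, which became -0.00 under median-of-ratios scaling. ITGB7 held place 11 from the lowest among these genes.

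The differences of CDH2 and CDH3 depended on which hatching cells were used. With the 14 hatching cells whose titles carry numbers 22 to 47, all EPI-like, CDH2 differed by -0.72 and CDH3 by 0.36, and 1 member was higher. With the 12 hatching cells numbered 1 to 18 these differences were 3.59 and -3.32. The labels do not say what the title numbers stand for. At a pseudocount of 10 in place of 1, which weighs high values more, no member was higher and 2 were lower. The share of all genes past 1 is not given for these alternatives.

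Step by step, middle minus early had 0 members higher (3.06% of genes) and 1 lower, CDH3 at -1.17 (3.61%). Late minus middle had 1 higher, CDH2 at 1.17 (3.95%), and 3 lower (5.82%): ITGB7 at -2.70, CDH3 at -1.88 and CDH1 at -1.55. Hatching minus late had 2 higher, ITGA5 at 1.87 and CDH3 at 1.72 (7.26%), and 2 lower, CDH1 at -1.38 and ITGB7 at -1.25 (9.87%). Most of the ITGB7 difference thus fell between middle and late, and most of the ITGA5 difference between late and hatching. By the classes described below, 29 of 52 late and 7 of 26 hatching cells were PE-like. Steps into and out of the late stage therefore mix stage with class make-up.

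Late and hatching cells were divided into classes by clustering on variable genes without the 46 members and without the listed markers. The late stage gave 23 EPI-like cells (epiblast markers) and 29 PE-like cells (primitive endoderm markers), and the hatching stage 19 and 7. NANOG medians were 546 and 8.97 FPKM in late EPI-like and PE-like cells and 614 and 3.53 in hatching ones. SOX17 medians were 0.199 and 58.0 FPKM in the late and 0.173 and 279 in the hatching classes. No middle cluster could be named, and an early cluster of 24 cells met the marker rule without a PE-like counterpart and was not compared. Many transcripts differ between such clusters by construction, so the values that follow describe them. Hatching PE-like cells had a median of 9.74 M reads and 5680 detected genes against 13.2 M and 6940 in hatching EPI-like cells; the part of this gap in the lower values of PE-like cells was not tested.

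CDH2 was the member that parted the classes most widely. In late EPI-like cells it was detected in 0 of 23 cells, which allows a share of up to 14.8%, with a highest value of 0.794 FPKM. In late PE-like cells it was detected in 28 of 29 (interval 82.2% to 99.9%), from 0.168 through a median of 39.3 to 83.9 FPKM. Thus 28 of 29 PE-like cells lay above the highest EPI-like cell. In the hatching stage 1 of 19 EPI-like cells had it, at 2.32 FPKM, against 7 of 7 PE-like cells at 87.4 through 137 to 277 FPKM, and the classes did not overlap. The differences in mean log2 level were 4.81 (place 10 from the highest of 9781 genes) and 6.94 (place 22).

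CDH1 was lower in PE-like cells, and by more in the hatching stage. Late EPI-like cells had 68.5 through 164 to 381 FPKM and late PE-like cells 11.1 through 90.5 to 293 FPKM, overlapping. Hatching EPI-like cells had 55.1 through 89.8 to 194 FPKM and hatching PE-like cells 0.589 through 7.17 to 44.7 FPKM, without overlap. The differences were -1.04 and -3.69. The late value lay close to the threshold of 1 and was -1.86 in cells numbered 1 to 22 and -0.53 in cells numbered 23 to 79.

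CDH3 was detected in 20 of 23 late EPI-like and 8 of 29 late PE-like cells, at medians of 18.3 and 0.295 FPKM. In the hatching stage it was detected in 18 of 19 and 0 of 7 cells, at medians of 46.7 and 0.129 FPKM, and the highest PE-like cell had 0.962 FPKM. The differences were -2.98 and -5.05. CDH5 was detected in 18 of 23 late EPI-like and 4 of 29 late PE-like cells (difference -2.20), and in 7 of 19 and 0 of 7 hatching cells (difference -1.31). The late CDH5 difference was -3.70 in cells numbered 1 to 22 and -1.13 in cells numbered 23 to 79. Of the 9 endothelial markers, 3 were detected more often in late EPI-like and 3 in late PE-like cells, and in the hatching stage 3 and 1. VWF was detected in 100% of EPI-like cells in both stages against 41.4% of late and 28.6% of hatching PE-like cells, and EGFL7 in 30.4% of late EPI-like against 55.2% of late PE-like cells. Their part in the result was not tested.

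Between the late and hatching classes, the median cadherin sum varied less than its make-up, and the ranges of the sum overlapped. Early and middle cells had higher median sums, at 324 and 361 FPKM. Median summed cadherin FPKM was 199 in late EPI-like (119 to 424) and 155 in late PE-like cells (63.1 to 321). It was 140.0 in hatching EPI-like (75.2 to 319) and 153 in hatching PE-like cells (122 to 299). CDH1 made up a median of 85.7%, 62.4%, 53.5% and 4.86% of that sum, and CDH2 0.0422%, 33.3%, 0.0704% and 91.2%. CDH2 stood above CDH1 in 9 of 29 late and 7 of 7 hatching PE-like cells. CDH3 made up 33.5% in hatching EPI-like cells and stood above CDH1 in 4 of those 19.

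**Figure D3:**
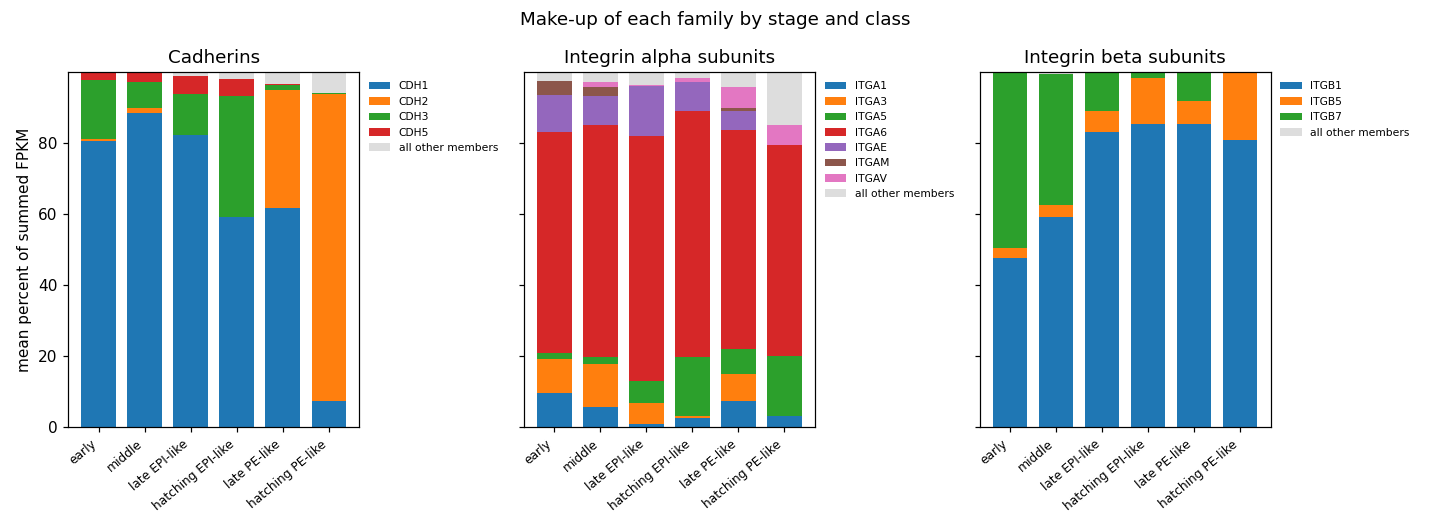
Mean percent (vertical axis, bars from 0 to 100) that each named member holds of the summed FPKM of its family per cell, for early and middle cells and for the EPI-like and PE-like cells of the late and hatching stages (horizontal axis); grey is the sum of the members not named. CDH2 fills most of the cadherin bar only in hatching PE-like cells, and the ITGB7 part of the beta bar is largest in early cells.

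Among integrins the class differences reached at most 1.16 in late and 2.07 in hatching cells. ITGAV was detected in 1 of 23 late EPI-like and 11 of 29 late PE-like cells, and in 3 of 19 and 6 of 7 hatching cells, with differences of 0.92 and 1.86. ITGB5, its partner, was detected in 10 of 23 and 16 of 29 late cells and in 8 of 19 and 6 of 7 hatching cells, with differences of 0.45 and 2.07. The pair of both was found in 0 of 23 late EPI-like, 8 of 29 late PE-like, 2 of 19 hatching EPI-like and 5 of 7 hatching PE-like cells. ITGA1 was detected in 1 of 23 late EPI-like and 14 of 29 late PE-like cells, a difference of 1.16 that was 0.38 in cells numbered 1 to 22, 1.60 in cells numbered 23 to 79 and 0.57 between SOX17-only and NANOG-only cells.

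ITGAE was detected in 20 of 23 and 20 of 29 late cells, and in 15 of 19 hatching EPI-like cells against 0 of 7 PE-like cells, where the highest value was 0.0494 FPKM. The differences were -0.76 and -1.99. ITGB1 medians were 42.2 and 62.4 FPKM in late and 44.3 and 86.5 FPKM in hatching EPI-like and PE-like cells, with differences of 0.34 and 1.14. ITGA6 differed by -0.00 and 0.44, and ITGA5 by -0.04 and 0.66, with ITGA5 detected in 7 of 23 and 7 of 29 late cells and in 13 of 19 and 5 of 7 hatching cells. Both laminin and fibronectin receptor chains were thus found in both classes.

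In late PE-like minus EPI-like, 2 of the 12 members that passed the filter were higher, CDH2 and ITGA1 (8.58% of genes), and 3 were lower, CDH1, CDH3 and CDH5 (9.03%). The median of the 12 was -0.05 and that of all genes -0.02. In hatching PE-like minus EPI-like, 3 were higher, CDH2, ITGB5 and ITGB1 (14.2%), and 4 were lower, CDH1, CDH3, CDH5 and ITGAE (33.7%). All genes here had a median of -0.45, which became -0.15 under median-of-ratios scaling, where 5 members were higher. The median of the 12 was 0.05. At a pseudocount of 10 the counts became 1 higher and 1 lower in late and 1 higher and 2 lower in hatching cells. No share of all genes is given for these other settings. The hatching EPI-like cells numbered 1 to 18, from the same number range as all 7 PE-like cells, were 5. Against these the ITGB1 difference was 2.48 and that of CDH5 -2.69, and CDH2, CDH1 and CDH3 differed by 6.60, -3.59 and -4.11. ITGA5, at 0.66 over all hatching cells, was at 2.42 against these 5.

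EPI-like cells were also followed from late to hatching, which holds the class fixed. ITGA5 was higher by 1.67 and CDH3 by 1.42 (8.34% of genes), and ITGB7 at -1.39 and CDH5 at -1.19 were lower (7.51%). CDH1 differed by -0.96. When hatching EPI-like cells were limited to the 5 with numbers 1 to 18, ITGA5 differed by -0.09 and CDH5 by 0.19, with 1 member higher and 4 lower in all. Within hatching EPI-like cells, those numbered 22 to 47 had ITGA5 higher by 2.39 and ITGB1 by 1.81 than those numbered 1 to 18. The ITGA5 difference in EPI-like cells was therefore present in 1 range of title numbers and not in the other. Hatching EPI-like cells numbered 1 to 18 held 8.35 to 11.6 M reads and those numbered 22 to 47 held 9.55 to 20.1 M. The part of depth was not tested. At a pseudocount of 10 no member was counted in either direction, and by medians over cells 1 was lower. The share of all genes is not given for these alternatives.

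PE-like cells from late to hatching, with 7 cells in the later stage, had 3 of the 12 higher (11.8% of genes) and 4 lower (30.1%). ITGA5 differed by 2.36, CDH2 by 2.17 and ITGB5 by 1.86, and on the other side CDH1 by -3.62, ITGAE by -1.39, ITGB7 by -1.36 and ITGA3 by -1.02. All genes had a median of -0.43. This comparison and the late and hatching class comparisons share cells.

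**Figure D4:**
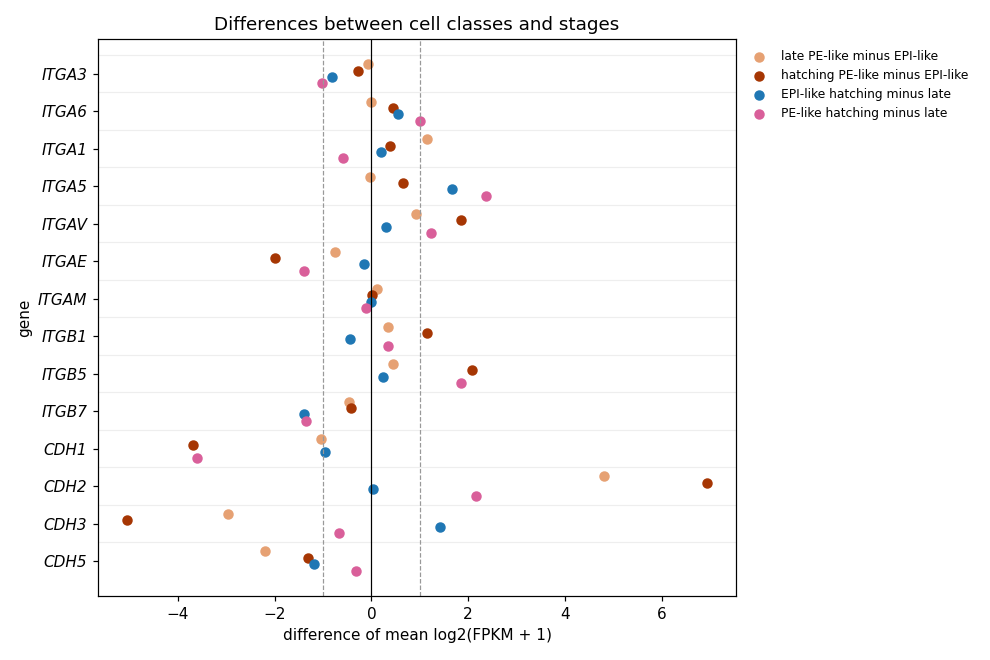
Difference of mean log2(FPKM + 1) (horizontal axis) for the 14 named members (vertical axis) in 4 comparisons, given by colour; dashed lines mark differences of -1 and 1. CDH2 has the largest positive and CDH3 the largest negative class differences in both stages, 4.81 and 6.94 against -2.98 and -5.05.

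Cells were then placed by NANOG and SOX17 directly, with NANOG counted at a log2 level of at least 5 and SOX17 at FPKM of at least 1. Early cells were 37 NANOG only, 6 with both and 1 with neither, and middle cells 29 NANOG only and 10 with both. Late cells were 24 NANOG only, 9 with both and 19 SOX17 only, and hatching cells 17, 2 and 7. Up to 2 cells of a set lay within 1 log2 unit of the NANOG threshold. Within 1 log2 unit of the SOX17 threshold, which takes in every cell with a low SOX17 value above 0, lay 6 early, 14 middle, 19 late and 11 hatching NANOG-only cells, 1 late and 2 hatching cells with both, and 1 late SOX17-only cell. Cells with SOX17 and with NANOG below its threshold therefore appeared only from the late stage on in these libraries. The 7 hatching SOX17-only cells, all PE-like, were not free of NANOG: each had it at FPKM of at least 1. Some late SOX17-only cells had NANOG below FPKM 1, down to a log2 level of 0.61.

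In late cells the cadherins followed a graded order over these sets. CDH2 had mean log2 levels of 0.32 in NANOG-only cells, 4.21 in cells with both and 5.44 in SOX17-only cells. CDH1 had 7.46, 7.12 and 5.89, CDH3 3.69, 1.83 and 0.79, and CDH5 2.61, 0.83 and 0.03. Cells with both markers thus had CDH2 nearer to the SOX17-only level and CDH1 nearer to the NANOG-only level. By clustering, 8 of these 9 cells were PE-like and 1 EPI-like. The 29 late PE-like cells thus held 19 SOX17-only cells, these 8 with both, and 2 NANOG-only cells, so the class values above include cells with NANOG past the threshold. CDH2 was detected in 8 of these 9 cells and CDH1 in all 9, while CDH5 was detected in 19 of 24 NANOG-only, 3 of 9 both and 0 of 19 SOX17-only cells. ITGB7 had means of 2.11, 2.49 and 0.56, which sets the SOX17-only cells apart from the other sets.

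Middle cells gave another picture. CDH2 was detected in 18 of 29 NANOG-only and 5 of 10 cells with both, at means of 1.65 and 1.86, and CDH1 had means of 8.34 and 8.49. In early cells CDH2 was detected in 14 of 37 NANOG-only cells and in 0 of 6 with both. Before the late stage, CDH2 was therefore also found in NANOG cells without SOX17, at up to 25.3 FPKM in a middle cell. Late EPI-like cells differed from middle cells by -1.52 in CDH2 and late PE-like cells by 3.29.

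Across the 52 late cells, Spearman correlations with NANOG and SOX17 were -0.79 and 0.84 for CDH2, 0.63 and -0.66 for CDH1, 0.57 and -0.56 for CDH3, and 0.68 and -0.64 for CDH5. Among the named integrins the largest were those of ITGAV, at -0.35 and 0.41, and of ITGA1 with SOX17, at 0.40. Across the 39 middle cells the CDH2 values were -0.01 and -0.00. Across the 26 hatching cells CDH2 had -0.61 and 0.92 and CDH1 0.65 and -0.62. The largest values of named integrins there were -0.59 with NANOG, for ITGB1 and ITGAV, and 0.44 with SOX17, for ITGB5 and ITGAV. CDH1 and CDH2 had -0.61 with each other in late cells and -0.55 within the 29 late PE-like cells alone. These correlations describe cells that share a stage, embryos that are not named, and a depth per cell for both genes. Within classes, CDH2 with SOX17 had 0.67 in late EPI-like, 0.34 in late PE-like and 0.84 in hatching EPI-like cells, where CDH2 values were mostly near 0. CDH1 with NANOG had 0.19 in late EPI-like, 0.58 in late PE-like and 0.14 in hatching EPI-like cells, and CDH5 with NANOG 0.10, 0.58 and 0.51.

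**Figure D5:**
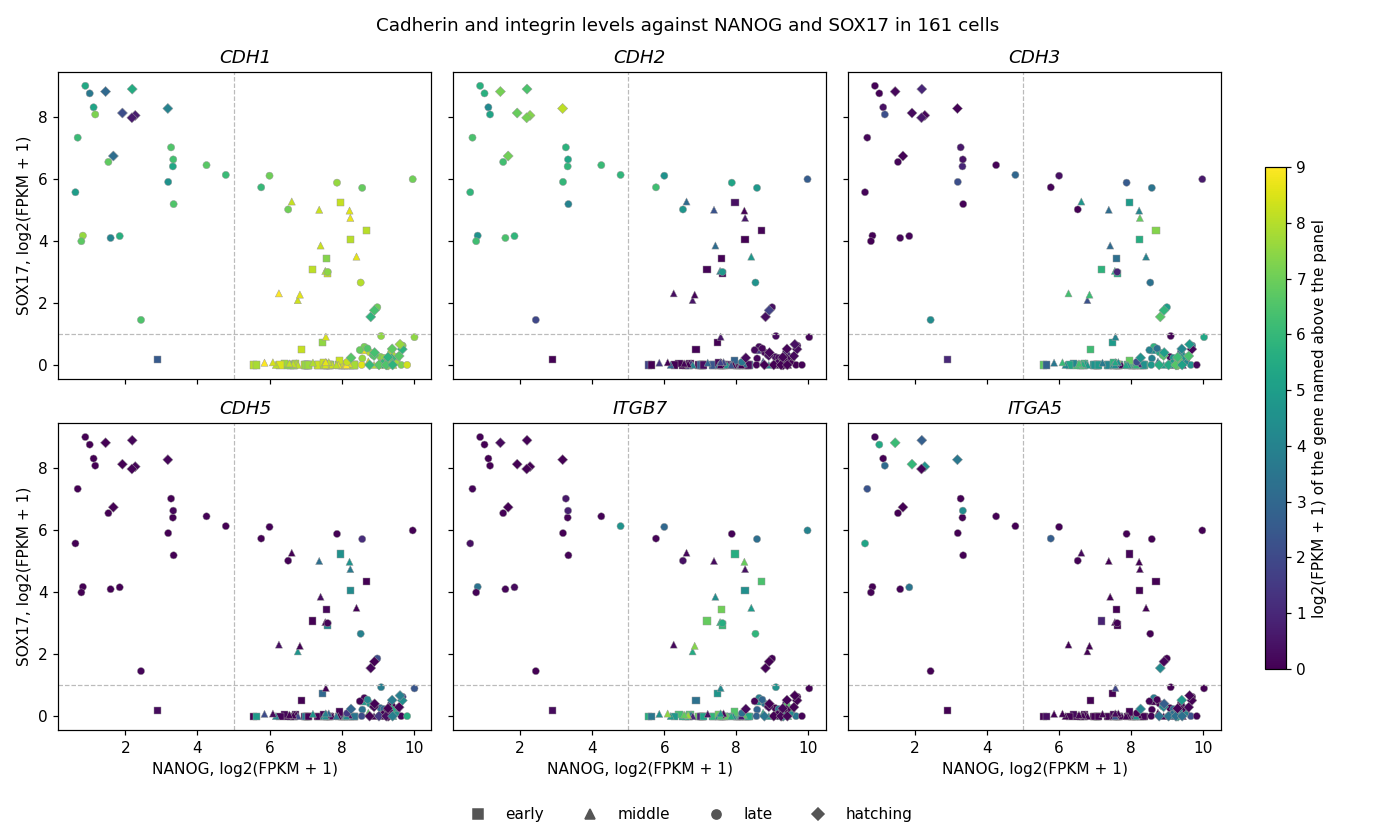
NANOG (horizontal axis) against SOX17 (vertical axis), both as log2(FPKM + 1), for all 161 cells, with shape for stage and colour for the level of the gene named above each panel; dashed lines mark the NANOG threshold at 5 and SOX17 at 1. CDH2 is high in cells with SOX17 at upper left, CDH3 and CDH5 are low there, and late cells with both markers lie between.

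The partners of the members were given from lists of related genes. Of the catenins, which tie cadherins to actin, CTNNA1, CTNNB1, CTNND1 and JUP were detected in every cell. In hatching minus early, 1 of 8 genes of the catenin list was higher (11.3% of all genes). This was CTNNBIP1, by 1.45, which is an inhibitor of beta-catenin and not itself a catenin. None was lower at that size (16.2%). In late PE-like minus EPI-like, 0 of 8 were counted (8.58% of all genes higher, 9.03% lower). In hatching PE-like minus EPI-like 1 was higher (14.2%), JUP (plakoglobin) by 1.42. A count of 1 of 8 is near the shares of genes that were higher. The medians of the catenin list, 0.08, 0.25 and 0.10, stood beside -0.12, -0.02 and -0.45 for all genes.

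Integrin adaptors, which join the beta tail to actin, were mostly higher in hatching than in early cells. Of 16, 9 were higher (11.3% of all genes) and 1 lower (16.2%), with a median of 1.26 beside -0.12 for all genes. PARVB (a parvin) was higher by 2.68, ACTN1 (alpha-actinin) by 2.19, ZYX (zyxin) by 2.12 and TLN1 (talin) by 1.61. TNS3 (tensin) was higher by 1.47 and PXN (paxillin) by 1.39. Between the late classes 4 were higher (8.58% of all genes) and 2 lower (9.03%) in PE-like cells, among them TLN2 at 1.69, PTK2 (focal adhesion kinase) at 1.45, PARVB at -1.23 and PXN at -1.12. Between the hatching classes 3 were higher (14.2%) and 3 lower (33.7%), with TLN2 at 3.32, PTK2 at 2.97 and PXN at -1.98. Their medians were 0.02 and -0.28, beside -0.02 and -0.45 for all genes.

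Ligands of the integrins that passed the filter differed widely between the classes. Of 31 ligands with values, 18 passed the filter on mean FPKM over all cells. A gene can pass it through 1 class alone: VTN had mean log2 levels of 8.04 in hatching PE-like and 0.35 in hatching EPI-like cells. The counts therefore describe the genes kept. Of these 18, 12 were higher (8.58% of all genes) and 3 lower (9.03%) in late PE-like than EPI-like cells, with a median of 2.44 beside -0.02 for all genes. NID2 and NID1, the nidogens of basement membranes, were higher by 6.79 and 3.54. The collagen IV chains COL4A2 and COL4A1 were higher by 3.87 and 3.79, and LAMA1, a laminin chain, by 3.76, while CYR61, a matricellular protein, was at -3.99. In the hatching stage 12 were higher (14.2%) and 5 lower (33.7%), with a median of 4.38 beside -0.45: NID2 by 9.09, VTN (vitronectin) by 7.69, FN1 (fibronectin) by 7.48, COL4A1 by 7.05 and COL4A2 by 6.39, with SPP1 (osteopontin) at -5.71.

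FN1, the ligand of α5β1, was detected in 4.55%, 5.13%, 48.1% and 92.3% of early to hatching cells, and in 89.5% of hatching EPI-like and 100% of hatching PE-like cells. Its mean log2 levels in the hatching classes were 2.79 and 10.28. VTN, the ligand of αVβ5, was detected in 10.5% of hatching EPI-like and 100% of hatching PE-like cells. In hatching minus early, 10 ligands were higher (11.3%) and 5 lower (16.2%), with FN1 at 4.74, SPP1 at 4.33, COL1A2 at 3.22, COL4A2 at 3.05, LAMB2 at 3.01 and LAMA4 at -3.59. LAMA4, a laminin chain, was detected in 90.9% of early and 0% of hatching cells.

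Known regulators of cadherin expression numbered 11 after the filter. In hatching minus early 1 was higher (11.3% of all genes), ADAM10 (a protease that sheds cadherins) by 1.45, and 2 were lower (16.2%), KLF4 at -4.03 and TWIST1 at -1.19; both counts are near these shares. In late PE-like minus EPI-like, 4 were higher (8.58%) and 1 lower (9.03%): OVOL2, a repressor of mesenchymal genes, was at -4.14, TWIST1, a mesenchymal factor, at 1.88, and KLF4 at 1.44. Between the hatching classes 2 were higher (14.2%), ADAM10 at 1.46 and OVOL1 at 1.08, and 3 lower (33.7%), KLF4 at -1.67, ESRP1 at -1.11 and OVOL2 at -1.04. SNAI2 and ZEB2 never reached FPKM 1 in any stage.

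Sparse members were rare in every stage. The widest of them were CDH26 (15 cells, 8 of 52 late), CDH11 (14 cells), ITGA2 (11 cells), ITGA4 (10 cells) and CDH6 (10 cells). All 8 late cells with ITGA2, a collagen receptor chain, were EPI-like, and all 7 late cells with ITGAL, a leukocyte chain, were PE-like, at up to 9.25 and 12.8 FPKM. Both were picked after their values were seen, and no share of equally sparse genes is given. Neither was detected in a hatching cell. CDH26 was found in 2 late EPI-like and 6 late PE-like cells, CDH11 in 2 and 5, CDH6 in 3 and 1 and ITGA4 in 1 and 3. The highest sparse value was ITGA11 at 69.6 FPKM in 1 hatching PE-like cell, where it led the alpha chains. Of the 12 type II cadherins, 9 were detected in at least 1 cell, and CDH5 was the only 1 among them that reached 25% of a stage.

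Title numbers also divided cells within stages. Some middle and late titles carry HSM or HSL before the number in place of M or L, HSL79 among them. Those cells were placed by number alone. Early cells held 6.35 to 14.1 M reads at numbers 1 to 28 and 11.4 to 18.9 M at numbers 29 to 48. The early cluster of 24 cells that met the marker rule held only numbers 1 to 28. Early cells numbered 29 to 48 differed from those numbered 1 to 28 by 1.85 in ITGB5, -1.79 in CDH5, -1.32 in ITGA6 and -1.24 in ITGAE (1 higher beside 5.69% of genes, 3 lower beside 5.33%). Middle cells numbered 32 to 55 differed from those numbered 1 to 29 by 1.48 in CDH3 and -1.32 in CDH2 (1 higher, 3.96%, and 1 lower, 8.37%). Late cells gave no member past 1 between numbers 23 to 79 and 1 to 22 (4.27% of genes higher, 3.33% lower). The late class difference of CDH2 was 5.24 in the lower and 4.58 in the upper range, so it was present in each.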

How the data were processed

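The authors deposited 1 table of FPKM (fragments counted per transcript length and per sequencing depth of the cell) for 16049 genes in 161 cells. Per the submitters' processing notes, FastQC, TopHat2 2.1.0, HTSeq and DESeq2 were used, with no role or order given. Genome build, annotation and use of strand: not given in the sources used here. Each column matched 1 cell's title, and 0 columns were unmapped. ITGA7, ITGA9 and CDH20 were not analysed here. All 46 members matched a RefSeq symbol.

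Low FPKM values come in steps, from which whole reads were recovered for 13857 of the 13857 genes above 0 in at least 2 cells. They served as depth only.

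Levels are log2(FPKM + 1). Differences are between means over cells on that scale, which understates differences of low genes; genes needed a mean of at least 1 FPKM. No 2 cells were identical, and no doublet caller was run on these singly picked cells.

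Classes came from Ward clustering within a stage of the 1000 most variable genes (10 principal components, 2 to 4 clusters, members and listed genes left out), named with at least 3 raised markers.

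Members were named at FPKM of at least 1 in at least 25% of a stage, and up to 6 genes of each related list by size of difference. Sparse members, marker genes, FN1, VTN and LAMA4 by stage were chosen after their values were seen. Members and lists were chosen with earlier results of these data known, and the endothelial list after seeing the data. The recovery of whole reads was checked on simulated counts. Tools were scikit-learn 1.9.0, scipy 1.17.1, pandas 2.3.3, matplotlib 3.10.9 and numpy 2.4.6 under Python 3.11.15. Alternatives were other pseudocounts, no filter, other scalings, medians, title-number ranges and classes by NANOG and SOX17.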

Additional observations from a re-analysis of the deposited data

How the results depend on the processing

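No paired analysis was possible because cells of different stages carry no shared replicate and no comparison had a test. Over the alternatives, 59 counts of members stayed within 1.5 times the reported count and 15 did not; of single members, 483 values moved by less than the spread between cells, 31 moved by more and 4, from members past 1 as reported, changed sign. Among the 31 differences not past 1, 16 changed sign under at least 1 alternative (28 values of 285). At a pseudocount of 10 the counts higher and lower were 0 and 2 (hatching minus early), 1 and 1 (late PE-like minus EPI-like), 1 and 2 (hatching PE-like minus EPI-like) and 0 and 0 (EPI-like hatching minus late). That setting shrinks all differences. The share of all genes past 1 is not given for any alternative, so these counts have no such share beside them. In hatching PE-like minus EPI-like, 6 were higher without the filter and 5 with median-of-ratios scaling. In late PE-like minus EPI-like, 1 was higher with NANOG-only and SOX17-only cells as classes. In EPI-like hatching minus late, 1 was lower by medians over cells, and 1 was higher and 4 lower with hatching cells numbered 1 to 18 alone, where ITGA5 was -0.09 and CDH5 0.19. In hatching minus early with hatching cells numbered 22 to 47 alone, 1 was higher, CDH2 was -0.72 and CDH3 0.36; those cells hold no PE-like cell. Other causes were not tested. Leaving out the early cell that stood alone, an alternative chosen after seeing the data, moved no count by over 1.5 times. With 1 sample a stage, no difference between stages can be told apart from a difference between embryos, and depth sets the limit at values near 0.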
